A study of Mus musculus with 4 samples.

Results

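Igf1, Spp1, Gpnmb and 6 further genes (Lgals3, Lgals1, Lgals3bp, Capg, Dkk2 and Vegfa) were described in CD11b+ microglia of a mouse model of Alzheimer's disease. They are 9 of the 49993 genes with a count, and all 9 were found by their symbol in each of the 4 libraries. They were chosen by their known part in the disease-associated state of microglia around amyloid plaques, and with their levels in these same libraries known. Their difference between the groups is therefore given as a description, without a test. Every mouse carried the APP/PS1 transgenes, which make amyloid build up in the brain, and was 10 months old. The AD group (2 libraries) was asrij+/+, and the AD/KO group (2 libraries) was asrij-/-, a constitutive deletion of asrij, the gene Ociad1. Cells were taken from the brain by magnetic sorting on CD11b, an integrin chain that neutrophils and monocytes carry as well as microglia. The labels state neither the promoter of the transgenes nor whether the libraries of a group came from separate animals, so the spread within a group may be technical.

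Microglia that gather at plaques switch on a program of secreted, shed and lysosomal proteins while their homeostatic genes decline. Among its products, Igf1 encodes insulin-like growth factor 1, a trophic factor for neurons and glia, and Spp1 encodes osteopontin, a secreted glycoprotein that binds integrins and CD44. Gpnmb encodes a transmembrane glycoprotein whose outer part is shed from the cell by ADAM proteases. Lgals3 and Lgals1 encode galectins, lectins that bind beta-galactosides, and Lgals3bp encodes a secreted glycoprotein that galectins bind. Capg encodes a protein that caps actin filaments, Dkk2 a secreted antagonist of Wnt signalling and Vegfa the main growth factor of blood vessels.

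The start regions of 4 of these genes are shown because 3 of them (Igf1, Spp1 and Gpnmb) had the largest fold differences of the 9 genes between the groups and the other (Lgals3bp) had the highest level per length in AD. Each run is the 250 bases before the annotated start, 5′ to 3′ on the gene's strand, from RefSeq on GRCm38.p6, and 8 of the 9 genes matched that table. For Igf1 this start lies 2846 bases past the first base of the gene, so its run lies inside the gene and not before it. Capitals mark matches, on either strand, to the letters searched for: TGANTCA (AP-1), GAGGAA (PU.1), AANNGAAA (IRF), CATGTG and CACGTG (E-boxes of the MiT family) and ACGTG (hypoxia-inducible factor, which lies inside CACGTG).
Igf1 (chr10:87860861-87861110, plus strand): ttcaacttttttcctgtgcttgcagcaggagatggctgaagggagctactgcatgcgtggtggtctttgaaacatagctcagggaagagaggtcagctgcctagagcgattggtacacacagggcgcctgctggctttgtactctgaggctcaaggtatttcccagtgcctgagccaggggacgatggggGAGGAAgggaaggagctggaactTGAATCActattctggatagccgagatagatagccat
Spp1 (chr5:104434861-104435110, plus strand): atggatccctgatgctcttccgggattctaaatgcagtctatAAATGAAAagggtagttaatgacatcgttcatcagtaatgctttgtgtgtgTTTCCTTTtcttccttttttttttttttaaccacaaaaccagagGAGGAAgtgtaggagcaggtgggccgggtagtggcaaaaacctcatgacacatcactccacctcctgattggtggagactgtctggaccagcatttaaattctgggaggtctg
Gpnmb (chr6:49036268-49036517, plus strand): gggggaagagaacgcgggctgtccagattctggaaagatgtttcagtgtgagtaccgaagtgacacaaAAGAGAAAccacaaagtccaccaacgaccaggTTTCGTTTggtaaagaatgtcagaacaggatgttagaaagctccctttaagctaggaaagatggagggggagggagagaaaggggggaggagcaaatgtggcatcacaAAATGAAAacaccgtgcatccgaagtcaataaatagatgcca
Lgals3bp (chr11:118401960-118402209, minus strand): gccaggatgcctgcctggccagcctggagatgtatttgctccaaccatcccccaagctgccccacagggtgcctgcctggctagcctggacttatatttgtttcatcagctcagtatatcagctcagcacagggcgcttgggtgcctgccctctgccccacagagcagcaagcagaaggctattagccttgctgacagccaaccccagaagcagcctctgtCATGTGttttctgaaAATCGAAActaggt

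Matches were counted in 1 window of 300 bases a gene, that of the first start the table lists, which adds 50 bases after the start. For Igf1 and Capg this start lies 2846 and 11365 bases inside the gene, and for the others it lies within 26 bases of the gene's edge. In these windows the PU.1 letters were found in 5 of the 8 genes (Igf1, Spp1, Lgals3bp, Dkk2 and Vegfa), against 28.3% of all 32851 windows. The IRF letters were found in 5 of the 8 (Igf1, Spp1, Gpnmb, Lgals3bp and Vegfa), against 23.9% of windows. The AP-1 letters were found in Igf1, 37 bases before the start, and in Gpnmb, 8 bases after it, against 7.81% of windows. CATGTG was found in Lgals3bp alone (14.2% of windows), and CACGTG (7.15%) and ACGTG (19.6%) in 0 of these 8 windows. Spp1 and Vegfa have a second listed start, and the window of the second Vegfa start holds ACGTG on the other strand. These are matches of letters, not binding sites.

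The libraries held between 13102622 and 19810076 counts. The deleted gene, Ociad1, was still read in every library, at 50.2 and 63.4 CPM (counts relative to the library total, after TMM scaling) in the libraries labelled AD and 38.9 and 32.1 CPM in those labelled AD/KO. Throughout, AD and AD/KO therefore stand for the libraries so labelled, and each direction is a difference between labels. Microglial identity genes were read in all 4 libraries, and 20 homeostatic genes summed to 23848 and 16141 CPM in AD and to 23898.5 and 7240.2 CPM in AD/KO. RNA of other cells varied between libraries. The 12 astrocyte markers summed to 2004 and 4765 CPM in AD and to 4978 and 12689 CPM in AD/KO, and the 15 neuron markers to 409.6 and 1371 CPM and to 1060.1 and 3295 CPM. The 12 neutrophil markers stood at 4768 CPM in AD replicate 2 and between 381 and 576 CPM in the other 3 libraries, and the 10 monocyte markers at 282 and 720.1 CPM in AD and 117 and 168 CPM in AD/KO. Of the 10 monocyte markers, 8 were lower in each AD/KO library than in any AD library, as were 21.7% of all genes tested. Of the 12 astrocyte markers 11, and of the 15 neuron markers 5, were higher in each AD/KO library than in any AD library, as were 20.3% of genes. The part of these cells in the results was not tested. In such bulk samples, fewer cells of a type and less RNA per cell cannot be told apart.

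Of the 9 genes, 7 had each AD/KO library below each AD library (Igf1, Spp1, Gpnmb, Lgals3, Lgals3bp, Capg and Dkk2), where 21.7% of the 21439 genes tested had that pattern. None of the 9 was higher in both AD/KO libraries, a pattern of 20.3% of genes. The members were chosen with this contrast known, so nothing is read from these counts. Across all genes, the edgeR quasi-likelihood test, adjusted by Benjamini and Hochberg, called 0 genes (0%) at an adjusted p under 0.05, with a smallest adjusted p of 0.680 and 1072 genes at an unadjusted p under 0.05. DESeq2 called 91 (0.462% of the 19705 genes to which it gave an adjusted p), 2 of the 9 genes among them, and edgeR with the replicate number as a block called 20.2% of genes, 8 of the 9 among them. From these counts nothing is read either, and the labels do not say that the numbers pair the libraries. The median log2 fold change was −2.15 over the 9 genes and −0.05 over all genes tested. Ordered from the lowest fold change of the 21439 genes, Igf1 came at place 71, Gpnmb at 104, Spp1 at 136, Dkk2 at 168, Lgals3 at 271, Capg at 405 and Lgals3bp at 1090. The 7 genes together summed to 253 and 231 CPM in AD and to 105 and 51.7 CPM in AD/KO. Their sum was lowest in AD/KO replicate 2, as was the homeostatic sum. This sum mostly reflects Lgals3bp and Capg, the most abundant of the 7 in CPM in the AD/KO libraries. Spp1, Gpnmb and Dkk2 were higher in AD/KO replicate 2 than in AD/KO replicate 1, and Igf1 and Lgals3 differed little between these libraries. Of 26 other genes of the disease-associated state that were tested, 24 lay lower in AD/KO and 0 were called, with a median of −0.99 and 12 at an unadjusted p under 0.05. Of all 21439 genes tested, 11314 lay lower. Among the 26, 23 had each AD/KO library below each AD library (21.7% of all genes did) and 2 had each above (20.3%). This list too was chosen with earlier results of these data known, so nothing is read from its counts. Cst7, a cystatin of this state, stood at 69.2 and 91.8 CPM in AD and 3.39 and 1.79 CPM in AD/KO. It was named after its values were seen. The 2 genes that lay higher were Fabp5 and Fth1. Fabp5 stood at 6.31 and 13.8 CPM in AD and 13.9 and 26.9 CPM in AD/KO, and Fth1 at 407 and 581 CPM and at 746 and 1275 CPM.

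**Figure D1:**
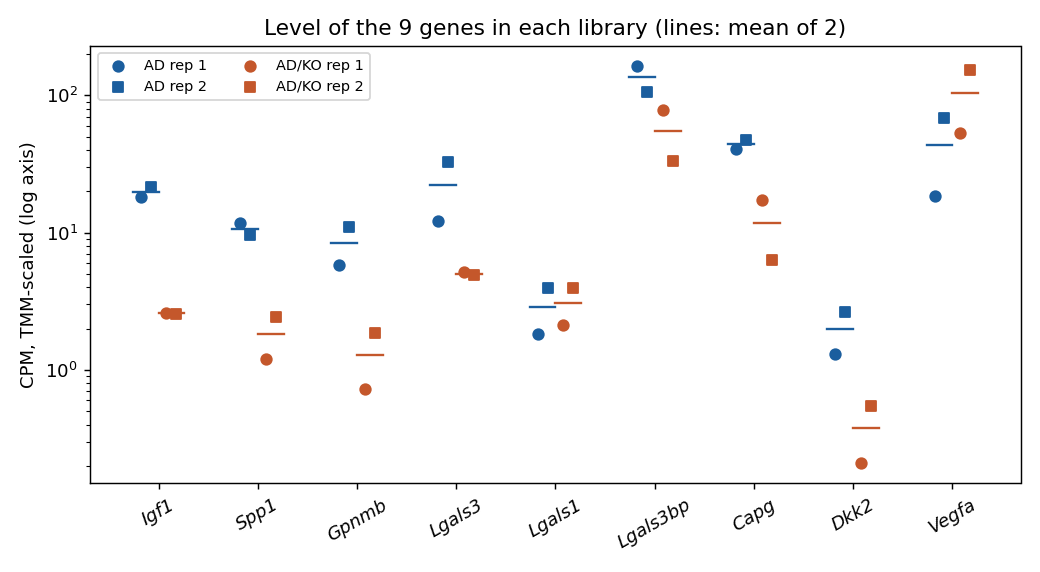
Level of each of the 9 genes in the 4 libraries, in CPM after TMM scaling on a log axis. Blue points are the AD libraries and orange points the AD/KO libraries (circles for replicate 1, squares for replicate 2), and short lines are the means of 2. The groups overlap for Lgals1 and Vegfa and for no other gene.

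Igf1, the growth factor, was counted 249 and 350 times in AD and 50 and 47 times in AD/KO. Its level was 18.1 and 21.5 CPM in AD and 2.61 and 2.55 CPM in AD/KO. Both AD/KO libraries lay far below both AD libraries, and the lowest AD library was 6.93-fold above the highest AD/KO library, the widest gap among the 9 genes. The AD mean of 19.8 ± 2.43 CPM compared with 2.58 ± 0.0397 CPM for AD/KO (SD, n = 2 each), which is 13.03% of it. On the log2 scale the fitted fold change was −2.94 (SE 0.38). The gene lies on chromosome 10 from 87858265 to 87937047 on GRCm38.p6 (gene ID 16000, protein-coding). The antisense gene Igf1os lies within its span but shares 0 exon bases with it and had 0 to 3 reads.

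Spp1, osteopontin, had 161 and 156 reads in AD and 23 and 45 reads in AD/KO. The levels were 11.7 and 9.59 CPM in AD and 1.20 and 2.44 CPM in AD/KO. The AD libraries were alike, and the AD/KO libraries were low but differed from each other 2.04-fold. Counting error alone gives a 95% exact Poisson interval of 0.760 to 1.80 CPM for AD/KO replicate 1 and of 1.78 to 3.27 CPM for AD/KO replicate 2. The means were 10.6 ± 1.48 and 1.82 ± 0.879 CPM (SD, n = 2 each), a log2 fold change of −2.54 (SE 0.55). Leaving out AD/KO replicate 2 gave −3.13, and leaving out AD/KO replicate 1 gave −2.07. Spp1 lies on chromosome 5 from 104435111 to 104441053 (gene ID 20750). A GENCODE transcript on the same strand, Gm42793, covers 18.8% of its exon bases and was not analysed here.

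Gpnmb, the shed glycoprotein, had 80 and 179 reads in AD and 14 and 34 reads in AD/KO. It stood at 5.81 and 11.003 CPM in AD and at 0.730 and 1.85 CPM in AD/KO. In both groups replicate 2 was the higher library, by 1.89-fold in AD and 2.53-fold in AD/KO, and the groups did not overlap. The means were 8.40 ± 3.67 and 1.29 ± 0.789 CPM (SD, n = 2 each), a log2 fold change of −2.70 (SE 0.70). Leaving out AD/KO replicate 2 gave −3.50, while −2.11 was found when AD replicate 2 and −2.13 when AD/KO replicate 1 was left out. Gpnmb lies on chromosome 6 from 49036518 to 49058182 (gene ID 93695).

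Dkk2, the Wnt antagonist, was the scarcest of the 9 genes, with 18 and 43 reads in AD and 4 and 10 reads in AD/KO. Its level was 1.31 and 2.64 CPM in AD and 0.209 and 0.543 CPM in AD/KO, low in both AD/KO libraries. The 95% exact Poisson intervals, which cover counting error only, reached 0.998 CPM at most in AD/KO and 0.774 CPM at least in AD, so that the intervals of single libraries overlapped between the groups. Its fitted log2 fold change was −2.38 (SE 0.82). Leaving out AD/KO replicate 2 gave −3.19, while −1.72 was found when AD replicate 2 and −1.80 when AD/KO replicate 1 was left out. Dkk2 lies on chromosome 3 from 132085266 to 132180304 (gene ID 56811).

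Lgals3, galectin-3, had 166 and 530 reads in AD and 99 and 90 reads in AD/KO. It stood at 12.05 and 32.6 CPM in AD and at 5.16 and 4.88 CPM in AD/KO. AD replicate 2 was 2.70-fold above AD replicate 1, while the AD/KO libraries lay within 1.06-fold of each other. Monocytes and macrophages carry Lgals3, and AD replicate 2 was also the library with the highest neutrophil and monocyte markers. All 12 neutrophil markers and all 10 monocyte markers were read in every library, and Elane and Mpo, genes of immature neutrophils, had 179 and 329 reads in AD replicate 2 against 2 to 4 and 3 to 14 reads in the other libraries. The part of these cells in the level of Lgals3 was not tested. AD replicate 1, the lower AD library, held 2.33-fold more Lgals3 than the higher AD/KO library. Its neutrophil sum (381 CPM) was the lowest of the 4 libraries, while its monocyte sum (282 CPM) was above both AD/KO libraries, as its Lgals3 was. The log2 fold change was −2.15 (SE 0.58) with all libraries and −1.20 without AD replicate 2. Lgals3 lies on chromosome 14 from 47373860 to 47386167 (gene ID 16854).

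Lgals3bp, the galectin-binding glycoprotein, had between 609 and 2259 reads. It stood at 164 and 106 CPM in AD and at 77.5 and 33.0 CPM in AD/KO. The groups did not overlap, but the lowest AD library was only 1.36-fold above the highest AD/KO library, the narrowest gap of the 7 genes. The log2 fold change was −1.29 (SE 0.52). Leaving out AD/KO replicate 1 gave −1.98, and −0.79 was found on leaving out AD/KO replicate 2, the library with the lowest homeostatic sum. Lgals3bp lies on chromosome 11 from 118392747 to 118401959 (gene ID 19039).

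Capg, the actin-capping protein, had 557 and 774 reads in AD and 330 and 117 reads in AD/KO. The levels were 40.4 and 47.6 CPM in AD and 17.2 and 6.35 CPM in AD/KO. Both AD/KO libraries were low, and replicate 2 was the lower of them, by 2.71-fold. The fit gave a log2 fold change of −1.90 (SE 0.55), which was −2.74 on leaving out AD/KO replicate 1 and −1.34 on leaving out AD/KO replicate 2. Capg lies on chromosome 6 from 72538282 to 72562983 (gene ID 12332).

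The other two genes did not share this pattern. Lgals1, galectin-1, had 25 to 73 reads and stood at 1.81 and 3.93 CPM in AD and at 2.14 and 3.96 CPM in AD/KO. In both groups replicate 2 was the higher library, and the groups overlapped fully. Its log2 fold change was 0.08 (SE 0.67), and its sign depended on single libraries. Leaving out AD replicate 1 gave −0.38 and leaving out AD/KO replicate 2 gave −0.42, against 0.51 when AD/KO replicate 1 and 0.81 when AD replicate 2 was left out. Lgals1 lies on chromosome 15 from 78926725 to 78930465 (gene ID 16852).

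Vegfa, the vascular growth factor, had 255 and 1105 reads in AD and 1024 and 2839 reads in AD/KO. Its level was 18.5 and 67.9 CPM in AD and 53.4 and 154 CPM in AD/KO. AD replicate 1 was the lowest library and AD/KO replicate 2 the highest, and AD replicate 2 lay above AD/KO replicate 1, so that the groups overlapped. The fitted log2 fold change was 1.26 (SE 0.81). Leaving out AD replicate 2 gave 2.54 and leaving out AD/KO replicate 1 gave 1.89. When AD replicate 1 was left out the value was 0.59, and 0.31 when AD/KO replicate 2 was. Astrocytes are a known source of Vegfa in brain, and the astrocyte markers were lowest and highest in the same libraries. All 12 were read in every library. Set against the summed reads of these 12 genes, Vegfa had 9.23 and 14.3 reads per 1000 in AD and 10.7 and 12.1 in AD/KO. The neuron markers were also lowest and highest in these libraries and had the order of Vegfa in all 4, which the astrocyte markers did not. Per 1000 summed reads of the 15 neuron genes, Vegfa had 45.2 and 49.5 reads in AD and 50.4 and 46.8 in AD/KO. The part of astrocyte or neuron RNA in the level of Vegfa was not tested. Vegfa lies on chromosome 17 from 46016993 to 46032377 (gene ID 22339).

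**Figure D2:**
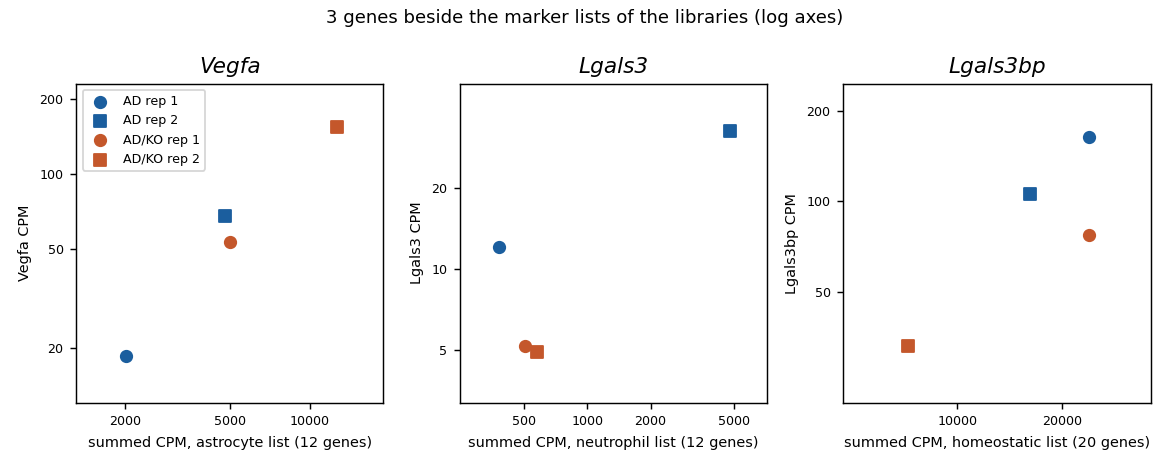
Level of Vegfa, Lgals3 and Lgals3bp (CPM, vertical axes) beside the summed CPM of astrocyte, neutrophil and homeostatic markers (horizontal axes), 1 point a library, all axes logarithmic. Vegfa and the astrocyte sum are lowest in AD replicate 1 and highest in AD/KO replicate 2. For Lgals3, AD replicate 2 stands apart at 32.6 CPM with a neutrophil sum of 4768 CPM.

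Since the summed level of the 20 homeostatic genes differed between libraries, the 9 genes were also set against the summed reads of these 20 genes. Homeostatic genes decline themselves in activated microglia, so this ratio is a different quantity and not a corrected level. On this scale Igf1 had 0.758 and 1.33 reads per 1000 homeostatic reads in AD and 0.109 and 0.352 in AD/KO. Spp1 had 0.490 and 0.594 in AD and 0.0502 and 0.337 in AD/KO. Capg had 1.70 and 2.95 against 0.720 and 0.877, and Lgals3bp 6.88 and 6.55 against 3.24 and 4.56. These 4 genes kept both AD/KO libraries below both AD libraries, where 8.46% of all genes tested did so on this scale.

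For Gpnmb the ratio was 0.243 and 0.682 in AD and 0.0305 and 0.255 in AD/KO, so that AD replicate 1 lay just below AD/KO replicate 2. Lgals3 likewise overlapped, at 0.505 and 2.02 against 0.216 and 0.675, and so did Dkk2, at 0.0548 and 0.164 against 0.00873 and 0.0750. With the libraries scaled to the homeostatic genes, the median over all genes tested became 0.70 (log2) in place of −0.05. On that scaling the log2 fold changes were −2.19 for Igf1, −1.73 for Gpnmb, −1.54 for Capg, −1.51 for both Spp1 and Lgals3, −1.48 for Dkk2 and −0.78 for Lgals3bp. The 7 genes remained lower in AD/KO on both scalings, while Lgals1 (0.98) and Vegfa (2.24) were higher.

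**Figure D3:**
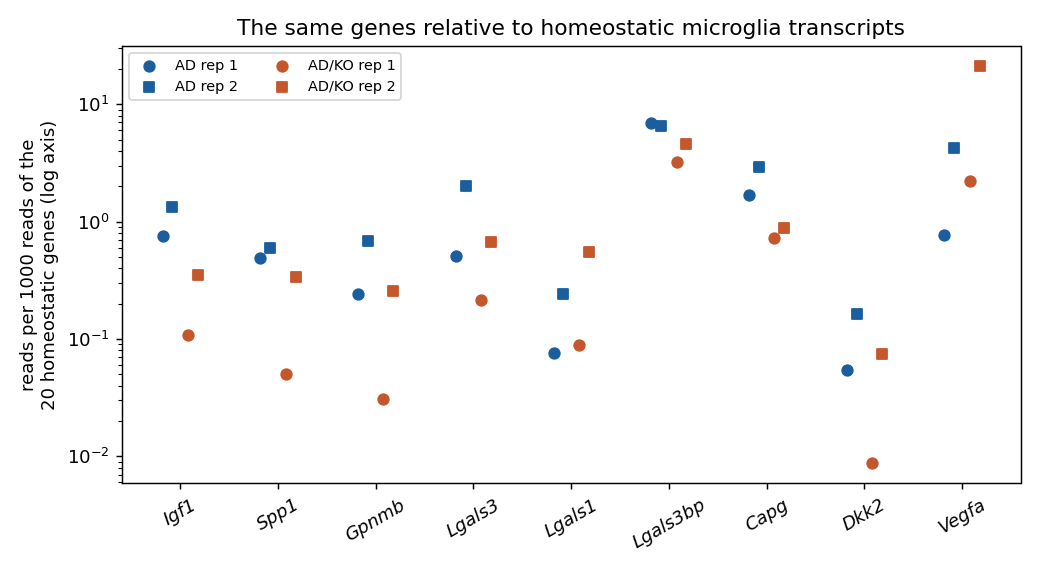
Reads of each gene per 1000 reads of the 20 homeostatic genes, on a log axis, with blue AD and orange AD/KO libraries (circles for replicate 1, squares for replicate 2). Igf1, Spp1, Lgals3bp and Capg keep the groups apart, and AD/KO replicate 1 is the lowest library for every gene except Lgals1 and Vegfa.

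Levels were compared between genes per kilobase of exon (RPKM, with the GENCODE M21 exon length), since Igf1 has 9904 exon bases and Lgals1 903. In AD, the highest was Lgals3bp at 47.4 ± 14.5 RPKM (SD, n = 2), above Capg at 17.4 ± 1.998 RPKM without overlap of libraries. Capg, Lgals3 (12.01 ± 7.81), Vegfa (10.1 ± 8.15) and Spp1 (6.45 ± 0.900) each overlapped the next in order. Spp1 stood clear of Lgals1 (3.18 ± 1.66), which overlapped Igf1 (1.998 ± 0.246). Gpnmb (1.29 ± 0.564) and Dkk2 (0.533 ± 0.255) followed, each below the last without overlap.

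In AD/KO the order of RPKM differed. Vegfa came first at 24.2 ± 16.6 RPKM (SD, n = 2) and overlapped Lgals3bp at 19.4 ± 11.05 RPKM. Capg (4.66 ± 3.03), Lgals1 (3.38 ± 1.43) and Lgals3 (2.70 ± 0.105) overlapped in turn. Spp1 (1.10 ± 0.533) stood below Lgals3 and above Igf1 (0.260 ± 0.00401) without overlap. Igf1, Gpnmb (0.198 ± 0.121) and Dkk2 (0.101 ± 0.0638) overlapped in turn.

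For each of the 9 genes the 3 genes with the most similar profile were named, by the root mean square distance of log2 CPM, centred on each gene's mean, over the 4 libraries. Such neighbours share library, depth and cell composition with the gene, and 4 points describe these libraries only. The search ran over genes with a mean of at least 5 CPM, 13768 of them for a member that passed this level itself and 13769 for the others. Clec7a, a lectin receptor of activated microglia, was nearest to Igf1, at a distance of 0.083, with 78.5 and 85.3 CPM in AD and 10.1 and 9.88 CPM in AD/KO. The other two were Gm15459 and Gm13391. Spp1 and Gpnmb had the same 3 neighbours, Klra2, Baiap2l2 and Fcrl1, at distances of 0.26 to 0.38. Dkk2 lay nearest to Ctse, Cd44 and C4b (0.23 to 0.24), and Lgals3 to Tmem154, Spn and Stx11 (0.089 to 0.13).

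Lgals3bp lay nearest to Ccdc146, LOC115487771 and Gm34417 (0.049 to 0.065), and Capg to Glipr1, Ly9 and Kcnj2 (0.16 to 0.21). Lgals1 lay nearest to Tfrc, Gm13067 and Pik3ip1 (0.035 to 0.051). Vegfa had the closest neighbours of all, Phactr3, Rap1gap and Azin2, at 0.0047 to 0.028. Phactr3 stood at 27.6 and 102 CPM in AD and at 79.8 and 231 CPM in AD/KO. Among the 9 genes themselves, the nearest pair was Gpnmb and Dkk2, at 0.29.

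The partners of each gene were then read from lists of its pathway, and 0 genes of these 8 lists passed the threshold in either direction. In the insulin-like growth factor axis, 15 genes other than Igf1 were tested, and 13 of them lay higher in AD/KO and 2 lower, with 0 at an unadjusted p under 0.05. Of all 21439 genes tested, 10125 lay higher and 11314 lower. Among the 15, 5 were higher in both AD/KO libraries (20.3% of all genes were) and 1 was lower in both (21.7%). Nothing is read from these counts. The list median was 0.90 with Igf1 and 0.91 without it. The receptor Igf1r stood at 136 and 189 CPM in AD and 157 and 196 CPM in AD/KO, and the insulin receptor Insr at 187 and 164 CPM and at 157 and 150.2 CPM. Igf1r overlapped between the groups, and Insr did not but differed little (log2 fold change −0.19, SE 0.30). The binding protein Igfbp5 stood at 51.0 and 129.5 CPM in AD and 109 and 266 CPM in AD/KO. It was lowest and highest in the same libraries as the astrocyte and neuron sums. Its order over all libraries was that of the neuron sum and not of the astrocyte sum. The part of these cells in the level of Igfbp5 was not tested. Without AD/KO replicate 2 the list median was 0.028, and 0.36 on leaving out AD replicate 1.

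Of 10 genes tested among osteopontin's relatives and receptors, 7 were lower and 3 higher, with 2 at an unadjusted p under 0.05, and the list median of −0.38 turned to 0.048 on the homeostatic scaling and was −0.019 without AD/KO replicate 2. The most abundant were the integrin chains Itgb5 (1133 and 766 CPM in AD, 1073 and 404 CPM in AD/KO), Itgav (267 and 194, 226 and 153 CPM) and Itgb1 (225 and 172, 182 and 95.3 CPM). For each of these 3 chains AD/KO replicate 1 lay within the AD range. Of the 10, 3 were lower in both AD/KO libraries (Cd44 and the integrin chains Itga4 and Itga5), a pattern of 21.7% of all genes tested. Another 2 were higher in both, a pattern of 20.3%. These were Dmp1 (1.74 and 7.38 CPM in AD, 8.18 and 22.0 CPM in AD/KO) and Itga8 (1.60 and 4.61, 5.42 and 12.9 CPM). All were named after their values were seen, and nothing is read from the counts. Cd44 had 35.9 and 86.8 CPM in AD and 12.9 and 20.4 CPM in AD/KO, and Itga4 43.3 and 61.8 CPM and 17.3 and 17.6 CPM. Both are also genes of neutrophils and monocytes, whose markers were highest in AD replicate 2, and the part of those cells was not tested.

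Around Gpnmb, all 7 other genes tested were lower (list median −0.55, −0.032 on the homeostatic scaling and −0.10 without AD/KO replicate 2), 0 of them at an unadjusted p under 0.05. The sheddases Adam10 (293 and 208 CPM in AD, 233 and 111 CPM in AD/KO) and Adam17 (209.5 and 141, 169 and 70.8 CPM) and the transcription factor Tfe3 (144 and 89.4, 131 and 60.1 CPM) overlapped between the groups. Among 6 other galectins tested, 4 were lower and 2 higher, again 0 at an unadjusted p under 0.05. The list median, members included, was −0.46, and it was 0.15 on the homeostatic scaling. Lgals9 stood at 103 and 73.9 CPM in AD and 93.0 and 29.1 CPM in AD/KO, Lgals8 at 98.6 and 69.6 and at 78.6 and 43.9 CPM, and the galectin-related Lgalsl at 8.85 and 13.8 and at 14.4 and 39.8 CPM.

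Of 9 relatives of Capg in the gelsolin family and capping protein, 6 were lower and 3 higher, with 2 at an unadjusted p under 0.05. Their median was −0.24. With Capg the list median was −0.32, and 0.43 on the homeostatic scaling. Capzb and Capza2, chains of the capping protein, stood at 179 and 166 and at 209 and 183 CPM in AD, and at 185 and 118 and at 164 and 103 CPM in AD/KO. Flii stood between 130.5 and 140.2 CPM in all 4 libraries. Of 22 other genes in the Dickkopf and Wnt receptor list, 6 were lower and 16 higher, with 1 at an unadjusted p under 0.05. Among the 22, 10 were higher in both AD/KO libraries (20.3% of all genes tested were) and 2 were lower in both (21.7%). Nothing is read from these counts. The Wnt co-receptors Lrp5 (195 and 119 CPM in AD, 189 and 70.0 CPM in AD/KO) and Lrp6 (153 and 119.8, 128 and 118 CPM) overlapped between the groups, and the Wnt effector Ctnnb1 stood at 215 and 246 and at 256 and 339 CPM. The list median of 1.25 was 0.29 without AD/KO replicate 2, and 0.48 on leaving out AD replicate 1.

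Of 8 relatives and receptors of Vegfa, 3 were lower and 5 higher, with 0 at an unadjusted p under 0.05. Their median was 0.25. With Vegfa the list median was 0.46, turning to −0.17 without AD replicate 1 and to −0.13 without AD/KO replicate 2. The co-receptor Nrp1 stood at 231 and 149.6 CPM in AD and 154 and 59.2 CPM in AD/KO, with overlap of the groups, and Nrp2 at 86.4 and 72.9 and at 72.4 and 58.2 CPM. Vegfb stood at 33.9 and 37.6 CPM in AD and 45.5 and 70.7 CPM in AD/KO. Among 19 other secreted growth factors tested, 10 were lower and 9 higher, 3 of them at an unadjusted p under 0.05, and the median of −0.018 changed sign between settings. Grn, progranulin, stood at 919 and 599.5 CPM in AD and 754 and 252 CPM in AD/KO, Pdgfb at 291 and 194 and at 265 and 120.4 CPM, and Tgfb1 at 298 and 209 and at 274 and 86.0 CPM. In these 3 abundant factors AD/KO replicate 1 lay within the AD range. In 4 of the 19 (Csf1, Gdf15, Hgf and Osm) each AD/KO library was below each AD library, a pattern of 21.7% of all genes tested. In 5 (Hbegf, Bdnf, Fgf1, Ptn and Mdk) each AD/KO library was above each AD library, a pattern of 20.3%. These genes were named after their values were seen, and nothing is read from the counts.

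**Figure D4:**
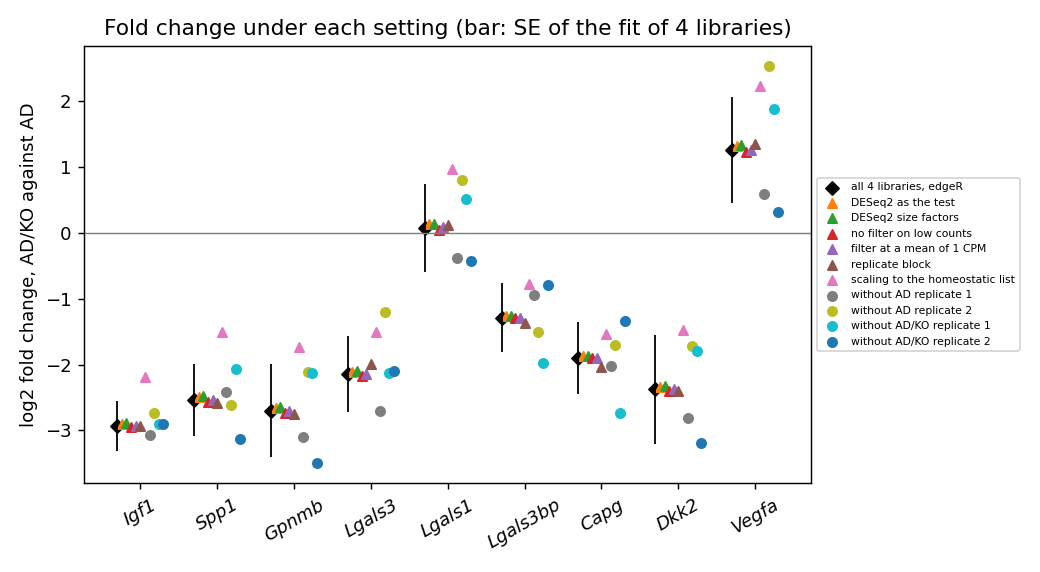
Log2 fold change of each of the 9 genes (AD/KO against AD) with all 4 libraries (black diamonds, with the SE of the fit as bars) and under each alternative (triangles for tests, filters, scalings and the replicate block, circles with 1 library left out). The 7 lower genes stay below 0 under every setting drawn, Vegfa stays above 0, and Lgals1 lies on both sides.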

How the data were processed

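TRIzol was used to extract the RNA of the sorted cells, and strand-specific libraries were made after removal of ribosomal RNA, per the labels' protocols. The authors deposited 1 table of raw read counts per gene symbol for each library. The submitters' processing notes name HISAT2, SAMtools, featureCounts and DESeq2 1.30.0 with build mm10, and the counting settings are not given in the sources used here. Broken lines without a count (11 in each) were dropped, and 0 columns lacked a sample.

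Members and lists were chosen with earlier results of these data known. All genes were fitted in edgeR 4.0.16 (R 4.3.3) with filterByExpr (minimum count 10, minimum total 15), TMM scaling, the quasi-likelihood test without covariates and Benjamini-Hochberg adjustment at 0.05. All 9 genes passed the filter. The SE is the log2 fold change divided by the square root of F. The procedure was also run on simulated counts. These had a common dispersion for all genes and no effect of replicate number, so that run does not show how the procedure performs on these libraries. Near-identical transcripts (95% over 100 bases) were searched with BLAST 2.17.0, and for these 9 genes the search found Gm42793 alone (Spp1). Genes named from a pathway list were its 3 most abundant, and likeness was measured among genes with a mean of at least 5 CPM (prior count 2). The alternatives were DESeq2 1.42.0, its size factors, no filter, a mean of 1 CPM, the replicate block, scaling to the homeostatic list and each library left out.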

Additional observations from a re-analysis of the deposited data

How the results depend on the processing

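Groups of 2 libraries allow no outlier check within a group, and scarce genes such as Dkk2 are limited by their 4 to 43 reads. Of 190 values under alternatives, 148 stayed within 1 SD of the libraries with the same sign (or, for counts of genes, within 1.5-fold), 29 moved further and 13 changed sign, and the cause was not tested. The number of genes called, 0 with edgeR, was 91 with DESeq2 (41 higher, 50 lower) and 0 to 524 with 1 library left out, the most without AD replicate 2 and 48 without AD replicate 1. The labels do not say what same-numbered libraries share, although deviations of same-numbered libraries correlated at 0.68 across genes. Under the replicate block the calls numbered 4333 (20.2% of the genes tested), of which 2878 were higher and 1455 lower. With it 8 of the 9 genes passed the threshold, from which nothing is read, as they were chosen on this contrast.

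Scaling to the homeostatic list gave −1.51 for the median of the 9 genes, −2.19 for Igf1, −1.51 for Spp1, −1.73 for Gpnmb, −1.48 for Dkk2 and 0.98 for Lgals1. The list medians, here and below, include those of the 9 genes on each list. On this scaling they were 1.86 (insulin-like growth factor axis), 0.048 (osteopontin), −0.032 (Gpnmb list), 0.15 (galectins), 0.43 (gelsolin family), 2.20 (Dickkopf and Wnt), 1.23 (Vegfa family) and 0.71 (other growth factors). With 1 library left out, where the lone library is assumed to vary like the other group, log2 fold changes ran from −3.07 to −2.74 for Igf1, −3.13 to −2.07 for Spp1, −3.50 to −2.11 for Gpnmb, −2.71 to −1.20 for Lgals3, −0.42 to 0.81 for Lgals1, −1.98 to −0.79 for Lgals3bp, −2.74 to −1.34 for Capg, −3.19 to −1.72 for Dkk2 and 0.31 to 2.54 for Vegfa. List medians ran from 0.028 to 1.3025 (insulin-like growth factor axis), −1.09 to −0.019 (osteopontin), −1.19 to −0.10 (Gpnmb list), 0.29 to 1.97 (Dickkopf and Wnt), −0.17 to 0.95 (Vegfa family) and −0.18 to 0.12 (other growth factors). The last median was also 0.021 with DESeq2, 0.029 with its size factors and 0.0012 with a mean of 1 CPM.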
